A study of Mus musculus with 21 samples.

Results

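Mki67, Top2a, Pcna, Mcm3, Mcm5, Mcm6, Mcm7, Stmn1, Tyms and Birc5 are 10 genes of DNA replication and cell division, read here as a measure of cycling cells among resting T cells of the mouse spleen. They were chosen by name, with earlier results of these data known, and all 10 were found among the 12994 genes of the table. T cells were sorted from female C57BL6/J mice as CD4+ or CD8+ cells within the CD45+ CD11b- CD3+ gate, and their RNA was counted as unique molecules, with a tag added at the 5′ end of each cDNA. From 4 weeks after birth the mice spent 4 weeks either in an enriched environment (EE, a large cage with objects and 12 to 15 mice) or in a standard environment (SE, a medium cage without objects and 5 to 6 mice). The labels name no genetic change or drug for any group. The groups held 6 CD4+ EE samples, 5 CD4+ SE samples, 6 CD8+ EE samples and 4 CD8+ SE samples. The labels place the mice of each environment in the same cage, so environment and cage cannot be told apart. In 9 mice, 6 of EE and 3 of SE, both populations were measured.

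A resting T cell is out of the cell cycle and holds little of the replication machinery until its antigen receptor is engaged. In cells that enter the cycle, E2F factors switch on the genes of S phase at the G1 to S boundary. These include the MCM subunits of the replicative helicase, the sliding clamp PCNA and thymidylate synthase. A second wave, driven in G2 and mitosis through the CHR element and CCAAT boxes, brings topoisomerase II alpha, Ki-67 and survivin. Ki-67 protein is the usual label of cycling lymphocytes. Stathmin, the product of Stmn1, binds tubulin and is abundant in dividing cells, but it is also made in cells that do not divide.

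The promoters are shown because both waves are known by the letters they carry. A promoter here is 250 bases before and 50 bases after the RefSeq start on GRCm38.p6, and 9 of the 10 genes had such an entry, with 10 promoters in all because Mcm7 has 2 starts. An E2F-type motif was searched on both strands as TTTCGCGC, TTTGGCGC, TTTCCCGC, TTTGCCGC, TTTCGCGG or TTTGGCGG. It was present in Mcm3, Mcm5, Mcm6 and Mcm7, and in 3.02% of all 32851 promoters of the same length. The windows of 30 bases below are written 5′ to 3′ on the strand of the gene, and capitals mark the E2F-type letters, with overlapping matches joined. The Mcm3 window lies 9 to 38 bases after the start and the others before it.
Mcm3, chr1:20820275-20820304, minus strand: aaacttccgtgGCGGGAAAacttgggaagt
Mcm5, chr8:75109345-75109374, plus strand: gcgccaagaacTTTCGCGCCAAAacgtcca
Mcm6, chr1:128359797-128359826, minus strand: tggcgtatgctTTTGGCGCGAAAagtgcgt
Mcm7, chr5:138172030-138172059, minus strand: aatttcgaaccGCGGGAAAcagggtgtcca

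The CHR element was searched on both strands as TTTGAA or TTCGAA, and it was present in Mki67, Top2a and Mcm7, against 19.2% of all promoters. The CCAAT box, also on both strands, was present in 7 of the 9 genes, and in 37.4% of all promoters. The promoters of Top2a and Mki67 held both more than once, and in the stretches below capitals mark the CHR and CCAAT letters.
Mki67, chr7:135716460-135716569, minus strand: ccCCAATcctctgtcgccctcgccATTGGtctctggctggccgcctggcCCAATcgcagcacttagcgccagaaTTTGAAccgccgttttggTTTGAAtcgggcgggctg
Top2a, chr11:99024205-99024379, minus strand: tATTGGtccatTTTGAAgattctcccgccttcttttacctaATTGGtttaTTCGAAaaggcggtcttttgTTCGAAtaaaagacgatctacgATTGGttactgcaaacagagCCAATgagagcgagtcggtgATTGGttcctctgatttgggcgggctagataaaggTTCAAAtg
Mcm7 held E2F-type, CHR and CCAAT letters, and Pcna, Tyms and Birc5 held neither E2F-type nor CHR letters in this window. Letters that match a motif describe the sequence and do not show that a factor binds there.

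Depth was even. The total was between 145546 and 221454 molecules per sample, with 9302 to 10137 genes detected. Values are normalized counts, that is molecules divided by a size factor per sample, and these factors lay between 0.794 and 1.26. The sort was clear in Cd4, which was 58.4 ± 12.0 normalized counts (SD, n = 11) in CD4+ samples and at most 0.966 in CD8+ samples. Cd8a was 98.4 ± 14.5 (SD, n = 10) in CD8+ samples and at most 3.09 in CD4+ samples, and Cd8b1 was 205.4 ± 20.3 against 3.62 ± 2.27. RNA of other cells was present, most of all that of B cells in the CD4+ samples. The sum of 14 B cell markers was 226 to 504 in 10 of the 11 CD4+ samples and 41.2 in CD4+ SE mouse 1, and it was 35.0 to 119 in CD8+ samples, where Ms4a1 and Ebf1 were at 0. The sum of 7 T cell markers was 439 to 624 in CD4+ samples, so in CD4+ SE mouse 3 the B cell sum of 504 was above the T cell sum of 489. The sum of 7 erythroid markers, mostly haemoglobin, stayed at or below 27.8 in 19 samples and reached 587 in CD8+ EE mouse 6 and 1037 in CD8+ SE mouse 3. Sums of plasma cell markers (1.71 to 17.4), myeloid markers (0 to 13.5), the detected NK cell marker (0 to 1.83) and platelet markers (0 to 4.291) were under 20 in all 21 samples. The part of these cells in the values below was not tested. In such bulk samples, fewer cycling cells and less RNA per cycling cell cannot be told apart.

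The 10 genes together made up 40 to 78 molecules per sample, or 2.23 to 4.31 of every 10000 molecules. Their sum was 52.7 ± 8.95 normalized counts in the CD4+ group (SD, n = 11), and in the CD8+ group it was 51.6 ± 7.89 (SD, n = 10). Pcna alone gave 435 of these molecules over the 21 samples, and Mcm7, Mcm6 and Stmn1 followed with 209, 145 and 127. Mcm3 (68) and Mcm5 (65) were lower, and Top2a (35), Mki67 (26), Tyms (26) and Birc5 (6) were near the limit of detection. These are counts of tagged molecules, not divided by gene length, since each molecule carries 1 tag at its end, and the efficiency of capture may differ between genes. Of the 10 genes, 6 had a mean above 2 over the 21 samples, the limit set for the main test, which 61.1% of all genes passed. Top2a was at 0 in 9 of 21 samples, Tyms in 10, Mki67 in 14 and Birc5 in 17. A count of 0 in a sample allows up to 3 molecules, so these zeros do not show that the transcripts were absent.

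**Figure D1:**
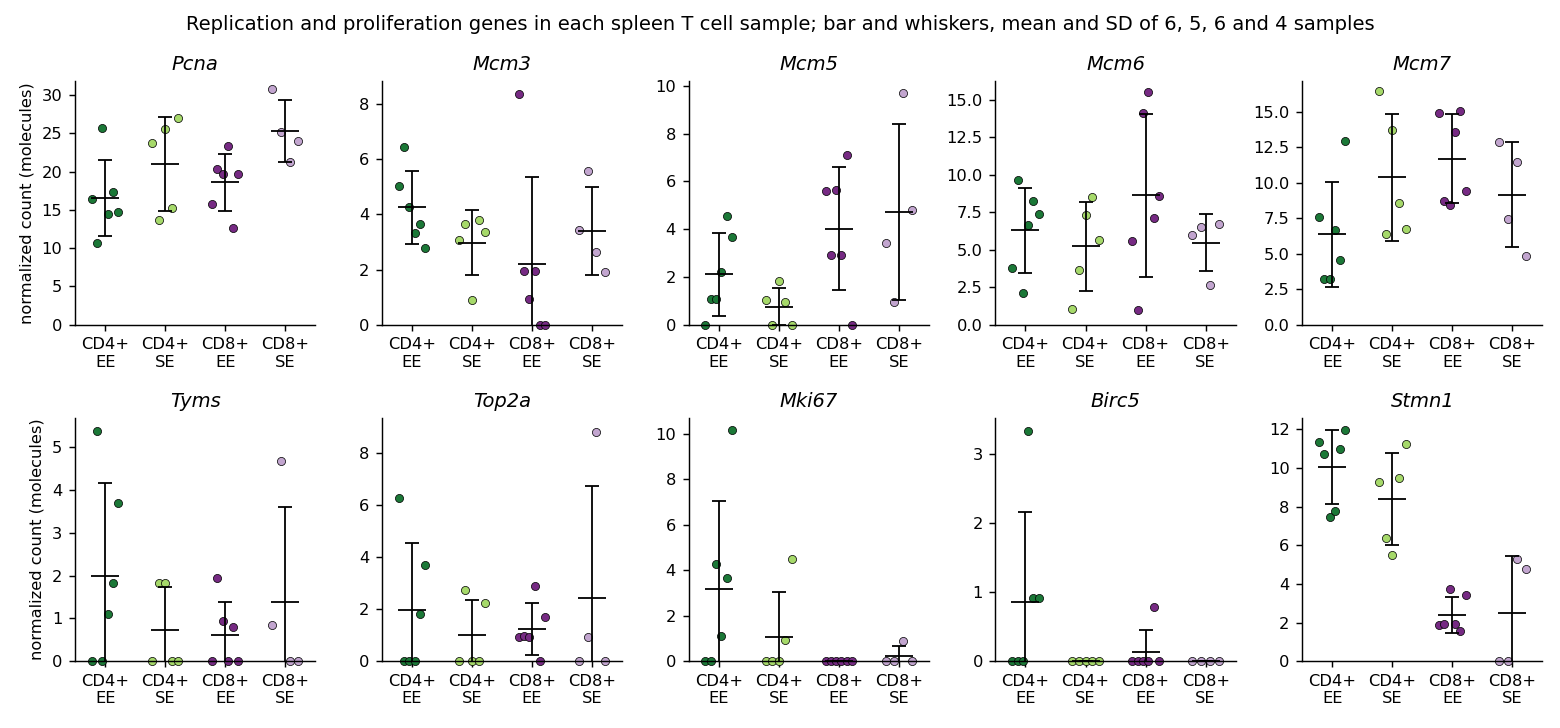
Normalized counts of the 10 genes in each of the 21 samples, by population and environment, with a separate axis from 0 for each gene; points are samples, and the bar and whiskers are the mean and SD, with whiskers that would pass below 0 ended at the axis. Stmn1 is the gene whose CD4+ samples (5.49 to 12.0) all lie above its CD8+ samples (0 to 5.30), while Mki67 is above 1 normalized count only in CD4+ samples.

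Stmn1 (ENSMUSG00000028832, GRCm38 chr4:134468320-134473843, plus strand) was the gene of the 10 that passed the test between the populations. In CD4+ EE samples it was at 11.3, 10.7, 7.48, 7.80, 11.0 and 12.0 normalized counts (mice 1 to 6), and in CD4+ SE samples at 9.27, 6.41, 5.49, 9.50 and 11.3 (mice 1, 3, 4, 5 and 6). In CD8+ EE samples it was at 1.86, 1.93, 3.76, 1.94, 1.58 and 3.44 (mice 1 to 6), and in CD8+ SE samples at 0, 0, 5.30 and 4.81 (mice 1, 2, 3 and 6). Every CD4+ sample was above every CD8+ sample, a separation seen in 0.869% of the genes tested, although the lowest CD4+ sample (SE mouse 4) and the highest CD8+ sample (SE mouse 3) each held 6 molecules and were parted by size factors alone. The CD4+ mean was 9.29 ± 2.20 (SD, n = 11), and the CD8+ mean was 2.46 ± 1.83 (SD, n = 10). The log2 fold change, on the scale of log2(normalized count + 1), was 1.80 (SE 0.317, 95% interval 1.17 to 2.44, limma with Benjamini-Hochberg adjustment, adjusted p = 2.97e-05). It was the only call among the 10 genes, where 4.4% of all genes were called between the populations and 2.33% of all genes were called higher in CD4+ cells.

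Within mice the direction held throughout. Stmn1 was higher in the CD4+ sample of all 9 mice with both populations, by 1.11 to 9.47 normalized counts and a median of 8.55. The smallest gap belonged to SE mouse 3, whose CD8+ sample was rich in haemoglobin RNA. EE mouse 6, with the other such CD8+ sample, had the median gap of 8.55, and the part of that RNA was not tested. In a fit on the 9 mice that compared the populations within each mouse, the log2 fold change was 1.64 (limma, adjusted p = 0.00118). Without both haemoglobin-rich CD8+ samples, in a fit that took samples as independent, it was 2.07 (limma, adjusted p = 4.39e-06). CD4+ SE mouse 1, whose B cell marker sum of 41.2 lay within the range of CD8+ samples, had 9.27 normalized counts of Stmn1, while the part of B cells in this difference was not tested. Between environments Stmn1 did not pass the test in CD4+ cells (log2 fold change 0.26, 95% interval -0.39 to 0.90, limma, adjusted p = 0.945) or in CD8+ cells (0.43, -0.72 to 1.59, adjusted p = 0.987), where edgeR and DESeq2 put it at -0.04 and -0.06.

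**Figure D2:**
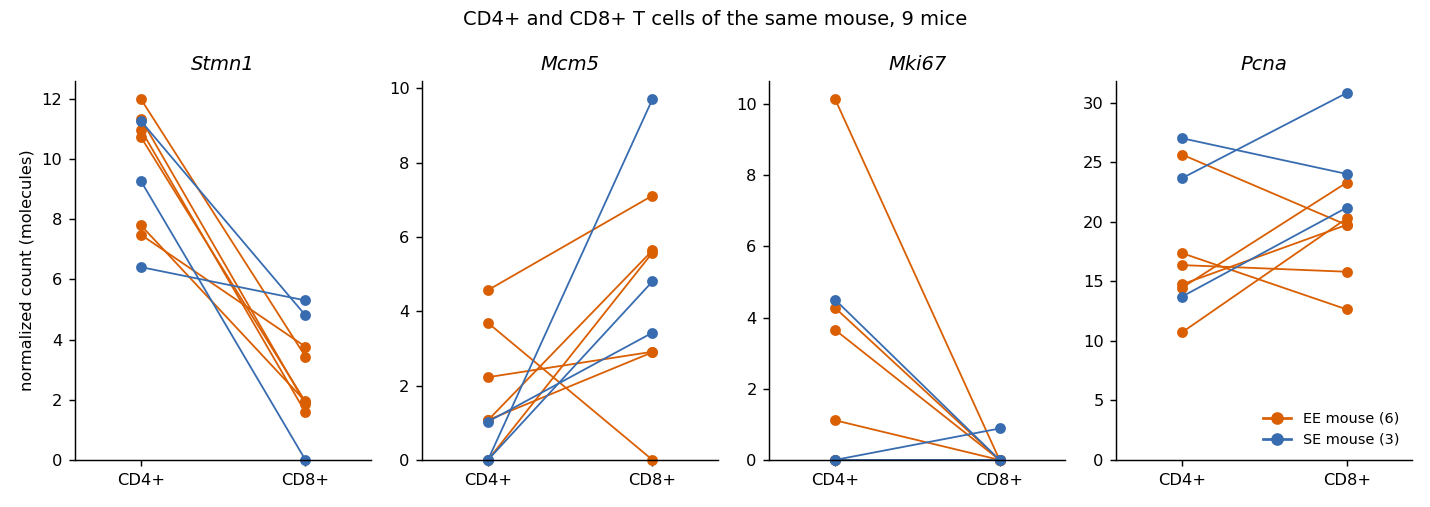
Stmn1, Mcm5, Mki67 and Pcna in the CD4+ and CD8+ samples of the same mouse, as normalized counts from 0; each line is 1 of 9 mice (6 EE in orange, 3 SE in blue). Stmn1 falls from CD4+ to CD8+ in all 9 lines, Mcm5 is higher in CD8+ in 8 lines, and Mki67 is higher in CD4+ in 5 lines and tied at 0 in 3.

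The MCM genes encode subunits of the ring helicase that is loaded at replication origins in G1. Among them, Mcm5 (ENSMUSG00000005410, chr8:75109569-75128439, plus strand) had the widest difference between populations, with lower values in CD4+ cells. It was at 0, 1.07, 1.07, 2.23, 4.57 and 3.69 normalized counts in CD4+ EE samples (mice 1 to 6), and at 1.03, 0, 1.83, 0.950 and 0 in CD4+ SE samples (mice 1, 3, 4, 5 and 6). In CD8+ EE samples it was at 5.58, 2.90, 5.64, 2.91, 7.12 and 0 (mice 1 to 6), and in CD8+ SE samples at 3.43, 0.931, 9.71 and 4.81 (mice 1, 2, 3 and 6). The groups overlapped, most of all through CD8+ EE mouse 6 at 0, a haemoglobin-rich sample, and the highest value came from the other such sample, SE mouse 3. Means were 1.49 ± 1.50 (SD, n = 11) in CD4+ and 4.30 ± 2.90 (SD, n = 10) in CD8+ samples, and Mcm5 was higher in the CD8+ sample of 8 of 9 mice.

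The test of Mcm5 depended on the fit. Over all 21 samples the log2 fold change from CD8+ to CD4+ was -1.11 (SE 0.394, 95% interval -1.90 to -0.32, limma, adjusted p = 0.108), which missed the threshold. With the mouse as a replicate block, which compares CD4+ and CD8+ cells of the same mouse and was fitted on the 9 mice with both, it was -1.51 and passed (limma, adjusted p = 0.0345), but not when the paired fit had no filter on the mean (adjusted p = 0.0627). It also passed without CD8+ EE mouse 6 (limma, adjusted p = 0.0283) or without CD8+ SE mouse 2 (0.0479), a sample that the paired fit also leaves out, and not without both haemoglobin-rich samples (0.126). On the recovered molecules the adjusted p was 0.0528 with edgeR and 0.0757 with DESeq2.

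Mcm7 (ENSMUSG00000029730, chr5:138164583-138172422, minus strand) was the MCM gene with the most molecules. It was at 7.56, 3.22, 3.21, 6.68, 4.57 and 12.9 normalized counts in CD4+ EE samples (mice 1 to 6), and at 16.5, 6.41, 13.7, 8.55 and 6.76 in CD4+ SE samples (mice 1, 3, 4, 5 and 6). The CD4+ EE values were mostly low, but the groups overlapped, and EE mouse 6 lay among the highest. In CD8+ samples the means were in the other order, 11.7 ± 3.14 for EE (SD, n = 6) and 9.15 ± 3.69 for SE (SD, n = 4), with wide overlap. The log2 fold change from SE to EE was -0.68 (95% interval -1.43 to 0.08, limma, adjusted p = 0.855) in CD4+ cells and 0.36 (-0.27 to 1.00, adjusted p = 0.963) in CD8+ cells. The difference between these changes, -1.04 (95% interval -2.04 to -0.05), had an unadjusted p of 0.0403 and an adjusted p of 0.994 in limma, where 4.95% of all genes had an unadjusted p under 0.05. Mcm7 overlaps Cops6 and Ap4m1, both on the opposite strand, and whether the counting used strand is not given in the sources used here.

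Mcm6 (ENSMUSG00000026355, chr1:128331590-128359664, minus strand) was detected in all 21 samples and Mcm3 (ENSMUSG00000041859, chr1:20802968-20820312, minus strand) in 19. Mcm6 was 6.31 ± 2.83 (SD, n = 6) and 5.24 ± 2.98 (SD, n = 5) in CD4+ EE and SE samples, and 8.65 ± 5.44 (SD, n = 6) and 5.47 ± 1.91 (SD, n = 4) in CD8+ EE and SE samples. Its CD8+ EE values ran from 0.966 in mouse 2 to 15.5 in mouse 4, and so covered the whole range of the other groups. Mcm3 was 4.252 ± 1.32 (SD, n = 6) and 2.97 ± 1.18 (SD, n = 5) in CD4+ EE and SE samples, and 2.20 ± 3.15 (SD, n = 6) and 3.40 ± 1.58 (SD, n = 4) in CD8+ EE and SE samples. The CD8+ EE mean of Mcm3 rested on mouse 1 at 8.37, since the other 5 mice lay between 0 and 1.94. Neither gene passed the test between populations, with log2 fold changes from CD8+ to CD4+ of -0.21 (95% interval -0.85 to 0.44) for Mcm6 and 0.49 (-0.23 to 1.21) for Mcm3.

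Pcna (ENSMUSG00000027342, chr2:132249162-132253314, minus strand), the sliding clamp that holds DNA polymerase on its template and also serves in DNA repair, was the most abundant of the 10. In CD4+ EE samples it was at 16.4, 10.7, 25.7, 14.5, 17.4 and 14.8 normalized counts (mice 1 to 6), and in CD4+ SE samples at 23.7, 13.7, 25.6, 15.2 and 27.0 (mice 1, 3, 4, 5 and 6). In CD8+ EE samples it was at 15.8, 20.3, 19.7, 23.3, 12.7 and 19.8 (mice 1 to 6), and in CD8+ SE samples at 30.8, 25.1, 21.2 and 24.0 (mice 1, 2, 3 and 6). In both populations the EE mean was lower, but the groups overlapped, and in CD8+ cells only EE mouse 4 lay above the lowest SE sample. The log2 fold change from SE to EE was -0.32 (95% interval -0.84 to 0.19, limma, adjusted p = 0.912) in CD4+ cells and -0.44 (-0.90 to 0.03, adjusted p = 0.957) in CD8+ cells. The latter had an unadjusted p of 0.0648, the lowest of the 10 in that population. Between populations it was -0.24 (95% interval -0.58 to 0.11, limma, adjusted p = 0.584). A processed copy of the gene, Pcna-ps2, was listed with group means of 0.831 to 1.18 normalized counts, and reads shared by both could be split between them.

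Tyms (ENSMUSG00000025747, chr5:30058202-30073617, minus strand) encodes thymidylate synthase, which makes the thymidine nucleotide needed for DNA synthesis. It gave 12 molecules over the 6 CD4+ EE samples and 4 over the 5 CD4+ SE samples, and 4 and 6 over the 6 CD8+ EE and 4 CD8+ SE samples. Its highest values, 5.36 normalized counts in CD4+ EE mouse 2 and 4.66 in CD8+ SE mouse 2, each came from 5 molecules. In the fit without a filter on the mean, used for genes with a mean of 2 or less, Tyms differed between populations by 0.22 on the log2 scale (95% interval -0.48 to 0.92, limma, adjusted p = 0.860).

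Mki67 (ENSMUSG00000031004, chr7:135689784-135716361, minus strand), the gene of the Ki-67 antigen, was found almost only in CD4+ cells. In CD4+ EE samples 0, 0, 4, 1, 4 and 11 molecules were counted (mice 1 to 6), and in CD4+ SE samples 0, 0, 0, 1 and 4 (mice 1, 3, 4, 5 and 6). In CD8+ samples 1 molecule was counted in SE mouse 3, the sample with the most haemoglobin RNA, and none in the other 9 samples, although CD8+ samples held 194047 molecules on average and CD4+ samples 170439. The ratio of the populations, 25 molecules against 1, was 25.5 after size factors, with an exact 95% interval of 4.172 to 1046 that covers counting error only. Without CD4+ EE mouse 6 it was 15.9, and without CD8+ SE mouse 3 no CD8+ molecule was left. The CD4+ samples also carried more B cell RNA. The sample low in it, SE mouse 1, held 0 molecules of Mki67, as did SE mouse 3, where the B cell sum was highest. Plasma cell markers, of which Jchain and Sdc1 are not in the table used here, were summed at 5.63 to 17.4 in CD4+ and 1.71 to 10.6 in CD8+ samples, mostly through Xbp1. Mzb1 of that list, singled out after its values were seen, gave 25 molecules in CD4+ samples and 3 in CD8+ samples, all 3 in EE mouse 6. The part of B cells and plasma cells in this difference was not tested. In the fit without a filter, where 3.24% of all genes were called, the log2 fold change was 0.99 (SE 0.329, 95% interval 0.34 to 1.65, limma, adjusted p = 0.0819) and missed the threshold. It passed without CD4+ EE mouse 1 (limma, adjusted p = 0.0287) or mouse 2 (0.0337), both at 0 molecules, and with the mouse as a replicate block it was 1.02 (limma, adjusted p = 0.196).

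Between environments Mki67 gave 20 molecules in CD4+ EE samples and 5 in CD4+ SE samples, a ratio of 3.55 after size factors (exact 95% interval 1.29 to 12.1, counting error only). The spread between mice was wider than counting: the variance within groups was 3.22 times that of counting, where the median over genes with a mean up to 2 was 1.30. EE mouse 6 alone held 11 of the 20 molecules, and the ratio was 1.97 without it (0.594 to 7.49) and 14.7 without SE mouse 6 (2.35 to 608). That EE sample was also the highest in Mzb1, which was counted at 1, 0, 3, 4, 3 and 8 molecules in CD4+ EE mice 1 to 6 and at 0, 2, 2, 0 and 2 in CD4+ SE mice 1, 3, 4, 5 and 6. The other markers measured, Xbp1 and Prdm1, did not share this order, since Xbp1 in EE mouse 6, at 5.53 normalized counts, was the lowest of the CD4+ EE samples (the highest was 13.9) and Prdm1 was at 0. The part of plasma cells in the Mki67 values was not tested. The test over mice gave a log2 fold change of 0.84 (95% interval -0.46 to 2.15, limma, adjusted p = 0.910), and the difference did not exceed the spread between mice.

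Top2a (ENSMUSG00000020914, chr11:98992943-99024189, minus strand), which untangles replicated chromosomes, was found in both populations. Molecules in CD4+ samples were 5, 0, 0, 0, 2 and 4 in EE mice 1 to 6 and 0, 3, 0, 0 and 2 in SE mice 1, 3, 4, 5 and 6. In CD8+ samples they were 1, 1, 1, 3, 0 and 2 in EE mice 1 to 6 and 0, 1, 10 and 0 in SE mice 1, 2, 3 and 6. The 10 molecules of CD8+ SE mouse 3 were the highest value, in the sample with the highest erythroid marker sum (1037), while the other haemoglobin-rich sample, EE mouse 6, held 2. The log2 fold change from CD8+ to CD4+ was -0.14 (95% interval -0.92 to 0.63, limma, adjusted p = 0.929) and turned to 0.27 without these 2 samples. From SE to EE it was 0.38 (95% interval -0.65 to 1.41) in CD4+ cells and -0.01 (-1.08 to 1.05) in CD8+ cells, and the latter turned to 0.65 without these 2 samples.

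Birc5 (ENSMUSG00000017716, chr11:117849251-117855743, plus strand), the gene of survivin, a subunit of the complex that guides chromosome segregation, was the rarest. CD4+ EE mice 4, 5 and 6 held 3, 1 and 1 molecules and CD8+ EE mouse 5 held 1, and the 9 SE samples held none. The single largest count, in CD4+ EE mouse 4, equals the floor of 3 molecules, and the fitted log2 fold changes, 0.67 from SE to EE in CD4+ cells and 0.26 from CD8+ to CD4+ cells, depend on the pseudocount and are no bound. The limma fit without a filter gave adjusted p-values of 0.899 between environments in CD4+ cells and 0.701 between populations.

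Between environments, then, none of the 10 genes was called in either population, and none had an unadjusted p under 0.05. In CD4+ cells 8 of the 10 were higher in EE and 2 lower, where 48.5% of all genes were higher without a filter. Their median log2 fold change was 0.41 in the fits reported above. For the 6 with a mean above 2 in CD4+ samples, 4 higher and 2 lower, it was 0.28, against 0.00 for the 7939 genes with a mean above 2. The background was 1 gene called (0.0126%), or 0.0233% without the filter, and 5.82% of genes with an unadjusted p under 0.05. In CD8+ cells 4 were higher in EE and 6 lower, where 48.8% of all genes were higher, with a median of -0.11, and the background was 0 genes called (0%) of 7840 in limma, edgeR and DESeq2, or 0.0236% without the filter in limma, and 5.27% with an unadjusted p under 0.05. Neither edgeR nor DESeq2 called any of the 10 that they tested. The 95% intervals, not adjusted for the number of genes, had a width to each side of 0.46 to 1.17 on the log2 scale in CD8+ cells. In CD4+ cells it was 0.52 to 1.31. Their far ends reached 2.15 in CD4+ cells (Mki67) and -2.02 in CD8+ cells (Mcm3), so changes of that size could have been missed. The difference between populations in the response to EE was not called for any of the 10 (limma, adjusted p 0.994 or more), as for all 7938 genes tested (0%).

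**Figure D3:**
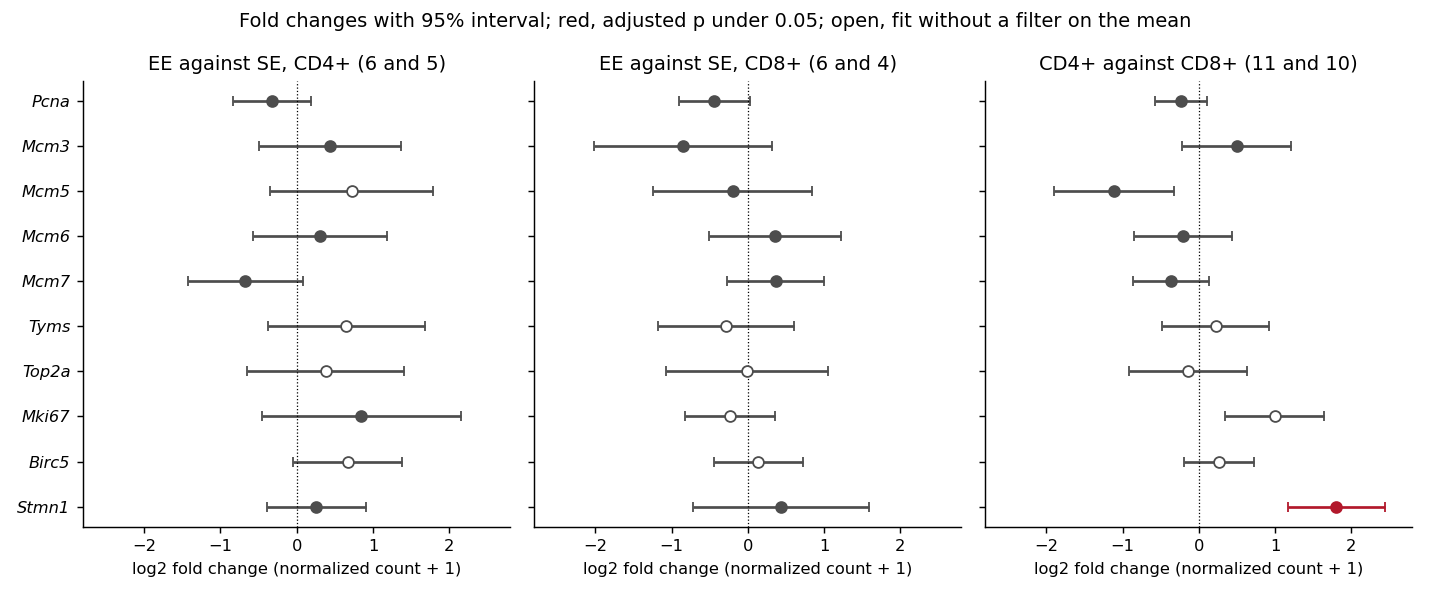
Log2 fold changes (x axis, on the scale of normalized count + 1) of the 10 genes from SE to EE in CD4+ and in CD8+ cells and from CD8+ to CD4+ cells; bars are 95% intervals, open points come from the fit without a filter on the mean, and red marks an adjusted p under 0.05. All intervals of the environment panels include 0, and in the population panel those of Stmn1, Mki67 and Mcm5 do not.

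Whether the genes were high in the same samples is given as a description. Over the 21 samples, with each group centred on its own mean, the 15 pairs among the 6 genes with a mean above 2 had a median Pearson r of -0.08, between -0.22 and 0.36. The closest pair was Mcm5 with Mcm7. Pairs among all genes had a median of 0.00, with 90% of them between -0.40 and 0.41, and in counts this low a weak correlation is no finding. The spread of Stmn1 (1.05 times counting) and Pcna (1.25), pooled over the 4 groups, was below the median of 1.57 over genes with a mean above 2. For Stmn1 the CD8+ SE group stood apart, at 3.80 times counting against 0.345 to 0.691 in the other groups. Mcm7 (1.65), Mcm5 (1.70), Mcm3 (1.90) and Mcm6 (1.93) were slightly above it and under the 90th percentile of 2.58. Mki67 (3.22) and Top2a (3.08) were above the 90th percentile of 2.16 of the genes with a mean up to 2. CD4+ EE mouse 6 had the highest Mki67 and Stmn1 of all samples and the highest sum over the 10 genes, at 71.9 normalized counts.

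The other genes of the cell cycle were followed as 6 lists of 143 genes in all, none of them among the 10, of which 124 are in the table. Levels were lowest in mitosis. In the list of mitosis and cytokinesis 8 of 25 listed genes had a mean above 2 and the median mean was 0.575 normalized counts, with 9 further genes, among them Ccnb1, Aurkb and Bub1, not in the table used here. In the other lists the share with a mean above 2 ran from 6 of 12 genes (deoxynucleotide supply) to 17 of 22 (inhibitors and quiescence), against 61.1% of all genes. Medians were 4.00 for origin licensing, 3.19 for the replication fork, 3.04 for deoxynucleotide supply and 2.78 for G1 entry, and 5.64 for inhibitors of the cycle and quiescence genes. Among inhibitors and quiescence genes the highest means were those of Btg1 (123), Klf2 (104) and Slfn2 (78.4), known for restraining T cell proliferation or keeping T cells quiescent. In G1 entry they were those of Ccnd2 (67.2) and Ccnd3 (44.1), cyclins of G1. Cdk4, their kinase partner, was at 17.2. The highest of the mitosis list was Smc4 (57.0), a condensin subunit, followed by the securin gene Pttg1 (16.4) and Smc2 (7.74). At the fork the highest were Pole4 (28.2), Top1 (24.8) and Rpa1 (15.0), in nucleotide supply Samhd1 (42.8), Dut (17.4) and Dtymk (13.3), and in licensing Mcmbp (8.71), Orc2 (7.80) and Mcm4 (5.92).

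**Figure D4:**
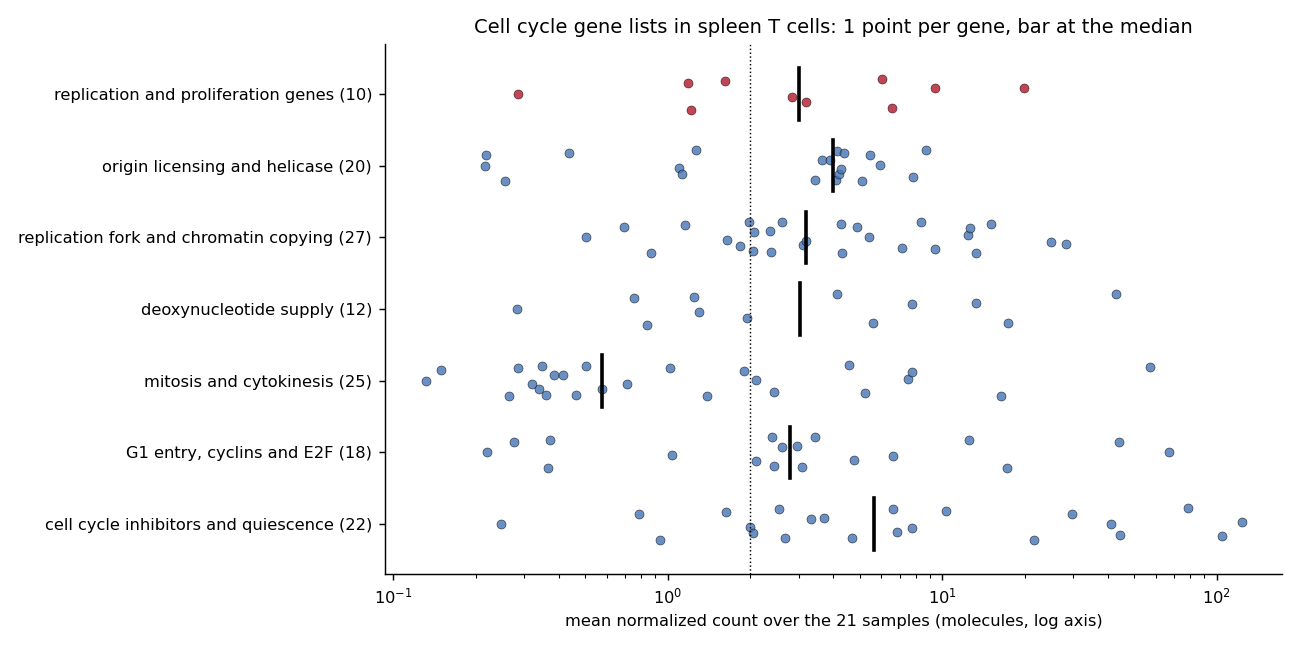
Mean normalized count over the 21 samples (log axis) of the 10 replication and proliferation genes (red) and of the genes of 6 cell cycle lists in the table (blue); points are genes, black bars are medians, and the dotted line is the mean of 2 used as the filter. The median of the mitosis list (0.575) lies left of the line and that of inhibitors and quiescence genes (5.64) is the farthest to the right.

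Between populations 2 of the 77 list genes with a mean above 2 were called, 1 in each direction, a share below the 4.4% of all genes, and 13 had an unadjusted p under 0.05, as did 14.8% of all genes. Racgap1, which encodes a GTPase-activating protein of the central spindle in cytokinesis, was lower in CD4+ cells, at 2.33 ± 1.68 normalized counts (SD, n = 11) against 8.45 ± 3.30 (SD, n = 10) in CD8+ cells. Its log2 fold change was -1.61 (95% interval -2.28 to -0.93, limma, adjusted p = 0.000672). It was thus opposite in direction to Stmn1. Samhd1, a hydrolase that lowers the deoxynucleotide pool, was higher in CD4+ cells, at 49.1 ± 8.63 (SD, n = 11) against 36.0 ± 8.02 (SD, n = 10), with a log2 fold change of 0.46 (95% interval 0.20 to 0.72, limma, adjusted p = 0.0227). Samhd1 was not called with the mouse as a replicate block (limma, adjusted p = 0.119), without both haemoglobin-rich samples (0.0765), or without CD4+ SE mouse 3 (0.0631), CD8+ EE mouse 5 (0.0575), CD8+ SE mouse 2 (0.0792) or CD8+ SE mouse 3 (0.0521). The 4 other lists had no call, and over the 77 genes the median log2 fold change was -0.01, as for all genes.

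Between environments none of the list genes was called in CD4+ cells (0 of 75) or CD8+ cells (0 of 74), and 2 and 6 of them had an unadjusted p under 0.05, where 5.82% and 5.27% of all genes did. The median log2 fold change was 0.08 and -0.08, against 0.00 and -0.01 over all genes. The groups did not overlap for 1 list gene in each population, where 0.342% and 0.809% of all genes had that pattern without a filter. Pole3, a histone-fold subunit of DNA polymerase epsilon, was counted in CD4+ cells at 1 to 3 molecules in all 6 EE samples and at 0 or 1 in the 5 SE samples. Cdc25a, a phosphatase that activates the kinases of G1 and S phase, was counted in CD8+ cells at 2 to 4 molecules in the 6 EE samples and at 0 to 2 in the 4 SE samples. In both genes the lowest EE and the highest SE sample held the same number of molecules and were parted by size factors alone, and neither passed the test without a filter (limma, adjusted p = 0.681 for Pole3 and 0.963 for Cdc25a).

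The genes outside the 10 whose levels were most like theirs were found from the mean log2 value of the 6 genes with a mean above 2, with each group centred on its own mean. Over 21 samples these were Phyh (Pearson r = 0.73), Pde4d (0.68), Nfe2l1 (0.68), X1110004F10Rik (0.67, as the table writes it) and Sqstm1 (0.67). They are the highest of 7938 genes by a measure that shares samples and depth, and are given as a description.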

How the data were processed

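Spleen CD4+ and CD8+ T cell RNA was sequenced with unique molecular identifiers. The authors trimmed reads with cutadapt, aligned them to mm10 with STAR 2.4.0a, used the Drop-seq tools to count molecules, removed genes of low abundance (limit not given in the sources used here) and normalized with DESeq2. The deposited signal is thus a molecule count over a size factor per sample. Whole molecules were recovered from the smallest value above 0 in a column, for 100% of values within 0.0001.

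Groups and mouse numbers came from the labels. The 10 genes and the lists were chosen with earlier results of these data known. Comparisons used limma 3.58.1 (R 4.3.3, trend) on log2(normalized count + 1), for genes with a mean above 2 in the samples fitted, with Benjamini-Hochberg adjustment over all genes and a threshold of 0.05: EE against SE within each population, and CD4+ against CD8+ and the interaction over 21 samples. Genes with a lower mean were read from the same fit without the filter. Named list genes were the 3 highest means of each list, those called, and those whose EE and SE samples did not overlap. Alternatives were a pseudocount of 0.5, no filter, a mean above 10, equal totals, TMM scaling, edgeR 4.0.16 and DESeq2 1.42.0 on recovered molecules, a replicate block, all samples in the fit, and each sample left out. Leaving out the 2 CD8+ samples high in haemoglobin RNA was added after seeing the data.

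CD4+ and CD8+ samples of a mouse share its number in the labels, which pairs them. Their deviations from the group means correlated at a mean r of 0.014 (-0.015 to 0.035, 9 mice). Nothing says that samples of a group came from separate experiments beyond separate mice, so p-values between environments measure the spread between mice. The main fits between populations and of the interaction took the 21 samples as independent, although 9 mice gave both populations. Their p-values thus do not account for the mouse, which the replicate block does. Each sample held 145546 to 221454 molecules, and intervals on molecules cover counting error only. The scripts were tested on simulated data. Motifs were searched in RefSeq promoters (GRCm38.p6), positions are from GENCODE M21 (GRCm38), the build of the alignment, and Matplotlib 3.10.9, SciPy 1.17.1, NumPy 2.4.6 and pandas 2.3.3 ran on Python 3.11.15.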

Additional observations from a re-analysis of the deposited data

Results flagged for a closer look

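In 45 sets of samples (10 genes and Racgap1 and Samhd1, in each of 4 groups, leaving out 3 groups at 0 throughout), 7 had a sample that stood apart from the rest by Dixon's test, which flags about 1 in 20 by chance and is made for continuous values rather than low counts. Mki67 was 4.505 normalized counts in CD4+ SE mouse 6 where the other 4 lay at 0 to 0.950, and 0.883 (1 molecule) in CD8+ SE mouse 3 where the others were at 0. Top2a was 8.83 in CD8+ SE mouse 3, against 0 to 0.931. Mcm3 was 0.914 in CD4+ SE mouse 4, below 3.09 to 3.80 in the others, and 8.37 in CD8+ EE mouse 1, above 0 to 1.94. Birc5 was 3.34 in CD4+ EE mouse 4, against 0 to 0.922, and 0.791 (1 molecule) in CD8+ EE mouse 5, against 0. CD8+ SE mouse 3, which gave 2 of the 7, was the sample with the highest erythroid marker sum (1037), and the part of that RNA in the values was not tested.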

How the results depend on the processing

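Of 675 alternative values of 33 fold changes, 647 changed neither sign nor call. Stmn1 between populations held in all alternatives, with log2 fold changes of 1.64 to 2.13 and, over 21 fits that left out 1 sample each, 1.59 to 2.03. Of the 10 genes, the 1 called between populations became 2 with the replicate block (Mcm5 was not called when that fit had no filter), 0 with a mean above 10, which removes Stmn1, and 1 to 2 with 1 sample left out. No other call of the 10 changed with the block. Over all genes, the 1 call between environments in CD4+ cells became 3 without a filter, 2 with edgeR, and 0 with a pseudocount of 0.5, a mean above 10, the replicate block or all 21 samples in the fit, and 0 to 3 with 1 sample left out. The 0 calls in CD8+ cells (413 genes at an unadjusted p under 0.05) became 3 without a filter, 3 with the block, and 0 to 3 with 1 sample left out. Between populations 349 calls among 7938 genes became 216 among the 2727 genes with a mean above 10, a larger share.

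Directions turned in 6 fold changes, none of them called. Top2a in CD8+ cells, from SE to EE, became 0.019 with the block, 0.65 without both haemoglobin-rich samples, and -0.37 to 0.73 with 1 sample left out. Top2a between populations became 0.077 with the block, 0.27 without those samples, and -0.32 to 0.23 with 1 left out. From SE to EE in CD8+ cells, Mcm5 (-0.20) became 0.60 without those samples and lay at -0.63 to 0.22 with 1 left out, Stmn1 (0.43) became -0.041 with edgeR and -0.056 with DESeq2, and Tyms (-0.29) lay at -0.57 to 0.26 with 1 left out. Mcm6 in CD4+ cells (0.30) lay at -0.060 to 0.52. The cause was not tested. Environment numbers do not pair mice: same-numbered EE and SE samples correlated at a mean r of 0.008 in CD4+ and 0.005 in CD8+ cells. Genes with a mean of 2 or less were refitted only with the block, without both haemoglobin-rich samples and with 1 sample left out. At 0 to 11 molecules per sample in Mki67, Top2a, Tyms and Birc5, depth limits what could be seen.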
